A study of Macaca fascicularis with 16 samples.

Results

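The genes described here encode nuclear subunits of the respiratory chain and of the ATP synthase, measured in mammary tissue under 4 hormone treatments. The rule for membership used gene symbols and no measured value, although the list was drawn up with earlier results of these data known: a probe set was a member if the annotation gave it 1 gene symbol and that symbol began with NDUFA, NDUFB, NDUFC, NDUFS, NDUFV, SDH, UQCR, COX4 to COX8 or ATP5, in the forms used for subunits. This gave 96 of the 52865 probe sets on the array and 57 of the 14133 gene symbols. Grouped into complexes by symbol, 25 belonged to complex I, 3 to complex II, 6 to complex III, 8 to complex IV and 15 to complex V, the ATP synthase.

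The 16 animals were female cynomolgus macaques, all postmenopausal and ovariectomized, with 4 animals in each group and 1 Affymetrix rhesus macaque array per animal. The control group received no treatment. The CEE group received conjugated equine estrogens, a mixture of estrogens, at 0.042 mg/kg. In the CEE+MPA group the same 0.042 mg/kg was combined with the progestin medroxyprogesterone acetate at 0.167 mg/kg. The tibolone group received 0.2 mg/kg of tibolone, a synthetic steroid whose metabolites act on several steroid receptors. The labels gave neither the length of treatment nor pairs of animals, and the p-values below rest on the spread between animals measured once each.

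Complexes I and II pass electrons from NADH and succinate to ubiquinone, complex III passes them on to cytochrome c, and complex IV hands them to oxygen. Complexes I, III and IV pump protons across the inner mitochondrial membrane, and the ATP synthase lets them back through a ring of c subunits, which turns a central stalk and drives ATP synthesis. The genes here are only some of the nuclear subunits of these complexes. RefSeq lists 84 cynomolgus genes whose symbols match the rule, and 56 of them had a member probe set. Genes without one included COX4I1, COX5B, COX6A1, ATP5F1A and SDHD, so the counts by complex are not complete. The core subunits encoded by mitochondrial DNA fall outside the membership rule and were not examined.

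Of the 57 genes, 56 had a probe set with a signal above 60.2, the median of the whole table, on at least 4 arrays, and these were tested. The exception was ATP5PB, the b subunit of the ATP synthase stalk, whose probe set read between 7.84 and 82.0. The tested genes were bright: 48 of 56 had a mean signal of 1000 or more. Where a gene had several tested probe sets, the brightest on average stands for it. Differences are given as log2 differences of (signal + 16) with their standard errors, tested with limma over 28704 probe sets and adjusted by Benjamini and Hochberg. "Rose" and "fell" are used for an adjusted p under 0.05.

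The authors had scaled the arrays to the same trimmed mean of 250.01 to 250.02. Luminal markers such as KRT19 (10400 to 24360) and EPCAM (963 to 3548) were present on every array. Skeletal muscle genes stood out on 4 arrays, namely control replicate 1, CEE+MPA replicate 1, and tibolone replicates 2 and 3, with list means of 2.51, 1.32, 2.24 and 1.43 against -1.14 to 0.07 elsewhere. Spike-in controls put control replicates 3 and 4, CEE replicates 1 and 2 and CEE+MPA replicates 1 and 4 into a low set of arrays. The remaining arrays, all 4 tibolone arrays among them, formed a high set. In mean log2 spike-in signal the tibolone arrays lay at 7.12 to 7.27, a level of their own. The other high arrays lay at 7.43 to 7.85 and the low set at 6.60 to 6.84. Fits that use these sets therefore do not match tibolone arrays with arrays of the same level. Whole tissue was measured, so fewer cells of a type and less RNA per cell cannot be told apart.

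Averaged over the 56 genes, subunit expression was lowest in control tissue and highest after CEE+MPA. Each gene was centred on its own mean over the 16 arrays before averaging. The control arrays read -0.14, -0.25, -0.15 and -0.05, and the CEE arrays 0.05, 0.06, 0.09 and -0.06. The CEE+MPA arrays read 0.27, 0.19, 0.17 and 0.04, and the tibolone arrays 0.10, -0.05, -0.23 and -0.04. All 4 CEE+MPA arrays lay above every control array, as did 3 CEE and 3 tibolone arrays, and 3 CEE+MPA arrays lay above every CEE array. The pooled SD within groups was 0.097. Gene by gene, the highest group mean was that of CEE+MPA for 44 of 56 genes, and the lowest was that of control for 37. For 43 genes the means followed the order control, CEE, CEE+MPA. These counts were not made over all genes or bright genes, so they cannot show an order particular to the subunits. Over bright genes the median log2 difference was 0.074 for CEE against control and 0.055 for CEE+MPA against CEE. It was 0.133 for CEE+MPA against control and -0.006 for tibolone against control.

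**Figure D1:**
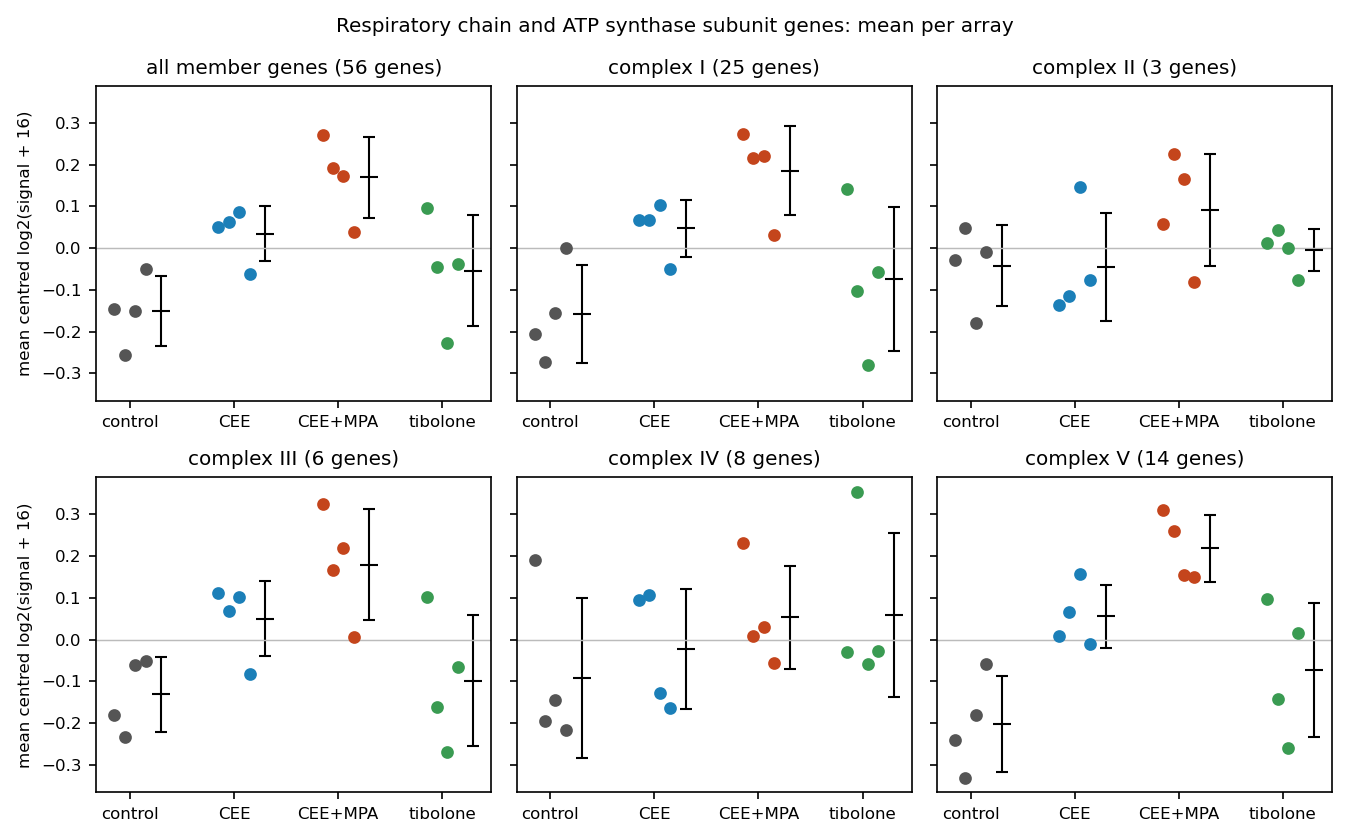
Mean centred log2(signal + 16) on each array, for all 56 tested subunit genes and for each complex; points are arrays, and the black marks give the group mean and SD (n = 4). For all genes together the control arrays lie between -0.25 and -0.05 and the CEE+MPA arrays between 0.04 and 0.27, and in complex IV tibolone replicate 2 lies at 0.35.

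CEE+MPA was compared with control first, since it was the comparison with the most calls among the subunits. Of the 56 subunit genes 7 rose, or 12.5%, and 0 fell. Over all 10452 genes tested, 2.74% rose and 4.96% fell. Among the 2501 genes with a mean signal of 1000 or more, 6.36% rose and 5.36% fell. The genes that rose were NDUFA4, NDUFA7 and NDUFB7, in complex I as grouped by symbol, and ATP5F1C, ATP5MC3, ATP5MG and ATP5PD of the ATP synthase. Signs were positive for 51 of 56 genes (91.1%), beside 51.4% of all genes and 65.3% of the bright ones. The median log2 difference was 0.34, a 1.26-fold difference, where that over all genes was 0.01 and over bright genes 0.13. At an unadjusted p under 0.05, 29 subunit genes were higher (51.8%, beside 13.6% of all genes and 25.3% of bright ones) and 0 were lower (beside 14.7% and 11.8%). For 18 genes every CEE+MPA array lay above every control array, and for 0 every array lay below. Of all genes, 9.04% were separated upwards in this way and 10.5% downwards, and of bright genes 19.6% and 9.28%.

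The median log2 difference of the subunits was positive under each of 27 alternatives, from 0.21 to 0.42, while the number of calls ran from 0 to 15, and over all genes from 0 to 1631 (804 as reported above). With 1 array left out at a time the median stayed between 0.30 and 0.38. For the control arrays 1 to 4, left out in turn, the counts of subunits called were 1, 0, 2 and 10, with 292, 140, 448 and 892 called over all genes. For the CEE+MPA arrays 1 to 4 they were 2, 2, 1 and 7, with 507, 272, 225 and 808 over all genes. Without the 4 arrays of high skeletal muscle signal, 0 subunit genes and 420 of all genes were called, and the subunits had 53 of 56 positive and a median of 0.29. Within the low spike-in set the median was 0.26 and within the high set 0.42, with 0 and 1 subunits called, beside 0 and 598 of all genes. The sets also differed in the log2 ratio of GAPDH 3' to 5' signal, a measure of RNA quality. It was 0.04 to 0.26 in the low set and 0.58 to 0.92 in the high set, apart from tibolone replicate 2 (0.11).

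Some markers of other cell types were called in the same comparison, where 2.74% of all genes rose and 4.96% fell. Of bright genes 6.36% rose and 5.36% fell. Fibroblast markers fell for 6 of 13 genes, and their list mean ran from 0.20 to 0.59 on control arrays and from -0.73 to -0.17 on CEE+MPA arrays. Myoepithelial and smooth muscle markers fell for 7 of 9 genes, with 0.19 to 0.55 on control and -1.22 to -0.34 on CEE+MPA arrays. Adipocyte markers fell for 2 of 17, endothelial markers for 3 of 10 and myeloid markers for 1 of 12, and 1 of 17 luminal markers, KRT19, rose. Other members of these lists went the other way without passing. Luminal KRT7 was at -1.15 ± 0.36 (adjusted p = 0.0644). Myeloid MRC1 was at 0.53 ± 0.16 (adjusted p = 0.0608) and adipocyte PNPLA2 at 0.41 ± 0.16 (adjusted p = 0.12). With the fibroblast mean as a covariate the median subunit difference was 0.21 and no gene of the whole table was called. The 2 groups did not overlap in this mean. The fit therefore cannot well separate the covariate from treatment, and calls lost in it decide nothing. With the luminal mean as a covariate the median was 0.33 and 7 subunit genes were called. This mean was nearly equal in the groups (-0.05 in control and -0.03 after CEE+MPA), so that fit could hardly change the difference and decides nothing either. The 99th percentile of the signal was also higher on the CEE+MPA arrays (8892 ± 48.0, SD, n = 4) than on the control arrays (8024 ± 265). The part of these markers and of the spread of bright signals in the subunit difference was not tested beyond these values.

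**Figure D2:**
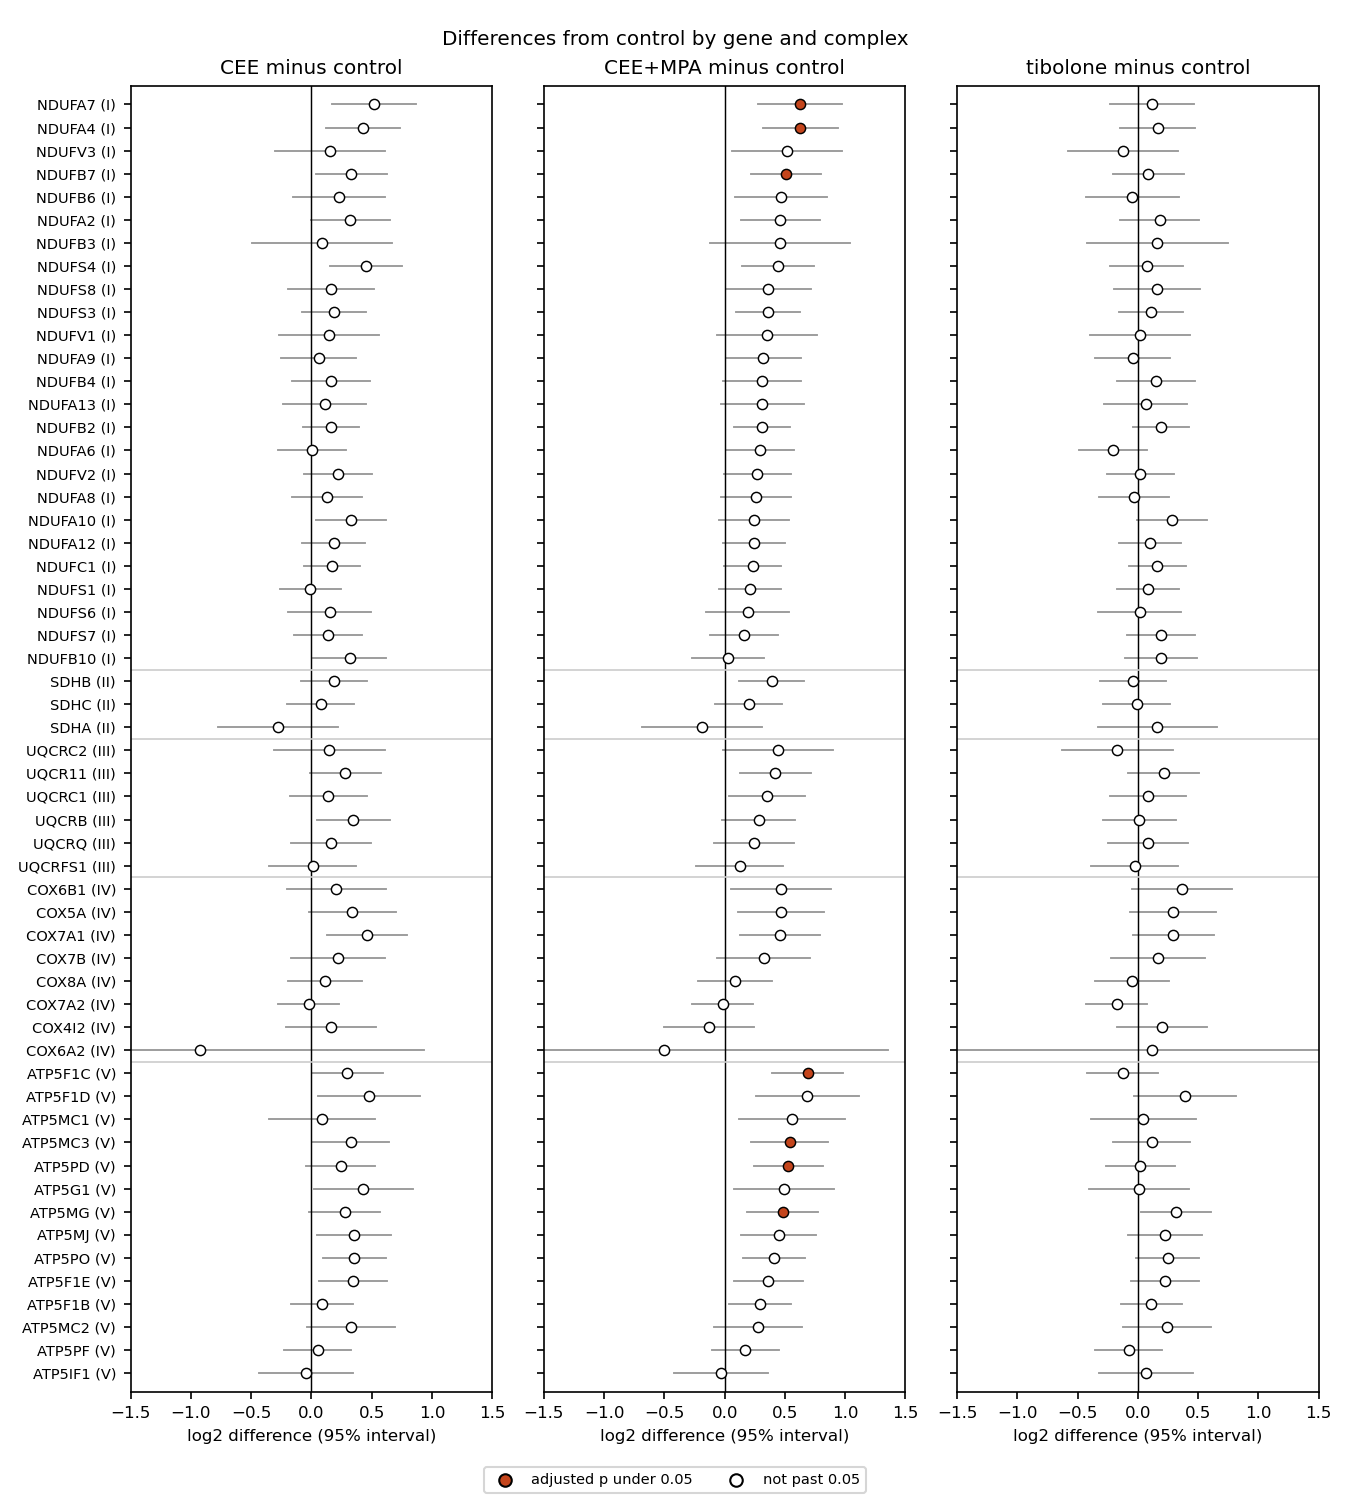
Log2 differences from control of the 56 subunit genes for CEE, CEE+MPA and tibolone, grouped by complex (in brackets); bars are 95% intervals, filled points passed an adjusted p of 0.05, and the COX6A2 intervals run past the axis. The 7 filled points all lie in the CEE+MPA panel, to the right of 0.

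In complex I as grouped by symbol, 3 of 25 genes rose after CEE+MPA, all 25 differences were positive and the median was 0.31. NDUFA4 was first described in complex I and was later assigned to cytochrome c oxidase. Counted there, it leaves 2 of 24 genes called in complex I. Its signal was 4957, 4584, 4905 and 5652 on the control arrays and 8953, 7303, 8430 and 6558 on the CEE+MPA arrays. The groups did not overlap, and the log2 difference was 0.63 ± 0.15 (SE, adjusted p = 0.0224). The CEE arrays (7247, 6582, 7364 and 5862) also lay above every control array, and the tibolone arrays (6750, 5092, 4764 and 6065) overlapped with control. Leaving out 1 of 4 arrays ended the NDUFA4 call, namely replicates 1 and 2 of the control animals and replicates 1 and 3 of those given CEE+MPA (adjusted p of up to 0.0812).

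NDUFA7 encodes an accessory subunit of the peripheral arm. Its signal was 1963, 1729, 2111 and 2293 in control and 3152, 2994, 3240 and 3106 after CEE+MPA, a log2 difference of 0.63 ± 0.16 (adjusted p = 0.0356). The 4 CEE+MPA animals were close together and lay above every control animal. With CEE alone the signal was 2515, 2742, 3132 and 3221, again above every control, and with tibolone it was 2519, 1851, 1683 and 2905, which spread over the control range and beyond. NDUFB7, an accessory subunit of the membrane arm, was at 892, 914, 1046 and 1064 in control and at 1358, 1563, 1410 and 1263 after CEE+MPA (0.51 ± 0.14, adjusted p = 0.0411). These groups did not overlap either. NDUFA7 kept its call with control replicate 4 left out and lost it with each of the other 7 arrays left out (adjusted p of up to 0.123). NDUFB7 lost its call without any 1 of control replicates 1 to 3 or CEE+MPA replicates 1 to 3 (up to 0.127).

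The catalytic subunits of complex I did not pass the test. NDUFS1, the largest iron-sulfur subunit, differed by 0.21 ± 0.12 (adjusted p = 0.308, 95% interval -0.05 to 0.47). NDUFV1, which carries the NADH binding site, differed by 0.35 ± 0.20 (adjusted p = 0.289, interval -0.07 to 0.77). NDUFS4, an accessory subunit needed for a stable NADH-binding module, was at 1836 ± 361 in control, 2488 ± 172 with CEE and 2474 ± 129 with CEE+MPA (SD, n = 4). Its highest control array (2345) overlapped with both treated groups, and the difference for CEE+MPA was 0.44 ± 0.14 (adjusted p = 0.0696).

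Complex II, which also works in the tricarboxylic acid cycle, had 0 of 3 genes called and a median of 0.20. Its members differed in sign. SDHB, the iron-sulfur subunit, was at 1460, 1306, 1569 and 1888 in control and 2159, 1933, 1848 and 2173 after CEE+MPA. Only the highest control and the lowest CEE+MPA array overlapped, and the difference was 0.39 ± 0.13 (adjusted p = 0.0788). It passed in 4 of 27 alternatives, of which 1 left out control replicate 4. SDHA, the flavoprotein that oxidizes succinate, differed by -0.19 ± 0.23 (adjusted p = 0.676), with control replicate 2 at 3227 and the other controls between 1575 and 2199. Without that array its difference was 0.03.

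In complex III all 6 genes were higher on average after CEE+MPA, with a median of 0.32, and 0 passed. UQCRC1, a core subunit facing the matrix, differed by 0.35 ± 0.15 (adjusted p = 0.167), with CEE+MPA replicate 4 at 3465 among the controls (3311 to 3744) and the other CEE+MPA arrays at 4695 to 5203. UQCRFS1, the Rieske iron-sulfur protein, differed by 0.13 ± 0.17 (adjusted p = 0.703). UQCR11, a small accessory subunit, had every CEE+MPA array (4510 to 5304) above every control (3444 to 4000), at 0.42 ± 0.14 (adjusted p = 0.0787).

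Complex IV as grouped by symbol had 0 of 8 genes called and 5 positive differences, with a median of 0.21. With NDUFA4 counted in it, 1 of 9 genes was called, 6 were positive and the median was 0.32. COX5A, a nuclear subunit present in most tissues, was at 2877, 2719, 2290 and 2778 in control and 3841, 4458, 3963 and 2693 after CEE+MPA. The last CEE+MPA array lay among the controls, and the difference was 0.47 ± 0.17 (adjusted p = 0.105). It passed without that array and with array weights. COX7A2, the liver-type or ubiquitous form of subunit 7A, differed by -0.01 ± 0.12 (adjusted p = 0.960, interval -0.27 to 0.24). COX7A1, the heart and skeletal muscle form, differed by 0.46 ± 0.16 (adjusted p = 0.0882, interval 0.12 to 0.80). Whether the 2 isoforms differed from each other was not tested. COX8A, the ubiquitous form of subunit 8, differed by 0.09 ± 0.14 (adjusted p = 0.760). COX4I2, the lung form of subunit 4, was dim on all arrays (53.4 to 113) and differed by -0.13 ± 0.17 (adjusted p = 0.704).

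COX6A2, the heart and skeletal muscle form of subunit 6A, had the largest standard error of the subunits. Its signal was 509, 61.1, 55.0 and 29.1 in control, 75.8, 78.2, 20.2 and 15.8 with CEE, 179, 17.2, 62.7 and 47.5 with CEE+MPA, and 28.5, 612, 158 and 20.6 with tibolone. The 4 arrays above 100 were the same 4 on which the skeletal muscle list stood out. Its difference between CEE+MPA and control was -0.50 ± 0.87 (adjusted p = 0.778), and without control replicate 1 it was 0.27. COX7A1 did not separate these 4 arrays from the others: it read 2775, 3768, 3243 and 2430 on them and 2078 to 4106 elsewhere. The complex IV mean followed COX6A2 on the muscle arrays. Without COX6A2 the mean of the other 7 genes was -0.16, -0.20, -0.13 and -0.12 on the control arrays and 0.09, 0.10, 0.03 and 0.02 on the CEE arrays. It was 0.09, 0.21, 0.05 and -0.003 on the CEE+MPA arrays and 0.10, -0.01, -0.21 and 0.14 on the tibolone arrays. All 4 CEE and all 4 CEE+MPA arrays then lay above every control array.

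**Figure D3:**
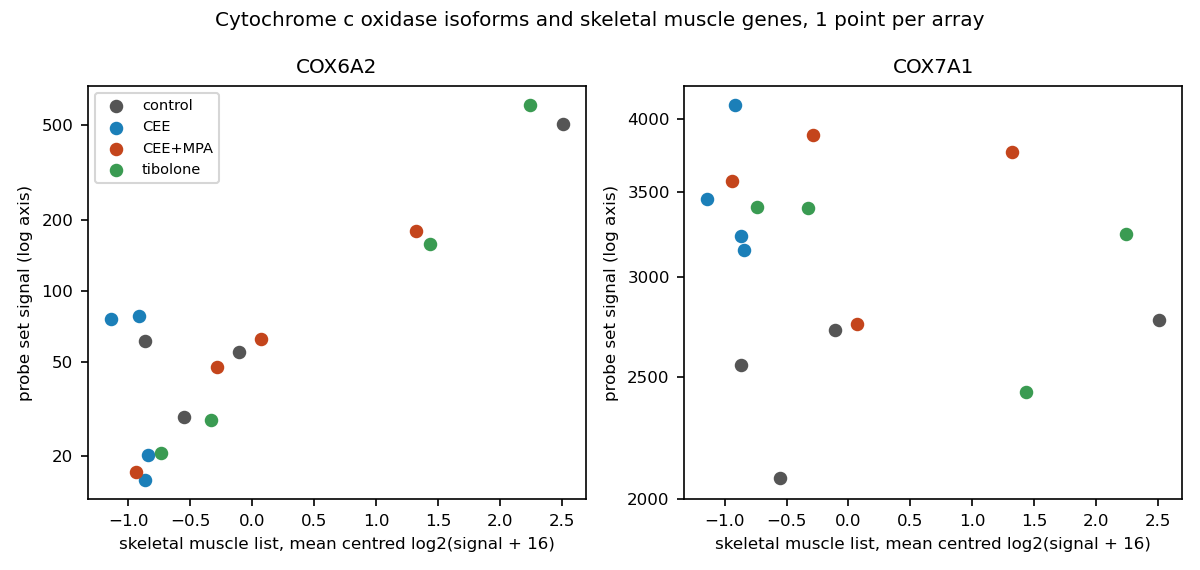
Signal of COX6A2 and COX7A1 (log axes) against the mean of the skeletal muscle list on each of the 16 arrays, coloured by group. COX6A2 exceeds 100 on the 4 arrays with a list mean above 1, and COX7A1 lies between 2078 and 4106 without setting these arrays apart.

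The ATP synthase had 4 of 14 genes called after CEE+MPA, 13 positive differences, 11 past an unadjusted p of 0.05 and a median of 0.46. ATP5F1C encodes the gamma subunit, the central stalk that turns inside the catalytic head. Its signal was 3379, 3159, 3519 and 4595 on the control arrays and 4737, 4053, 4862 and 4228 on the CEE arrays. It was 6289, 5423, 5919 and 5800 on the CEE+MPA arrays and 3733, 3378, 2793 and 3443 on the tibolone arrays. Every CEE+MPA array lay above every array of the other 3 groups. The log2 difference from control was 0.69 ± 0.14 (adjusted p = 0.0126), the largest rise among the subunits. Its call was lost without control replicate 2 (adjusted p = 0.0539).

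ATP5PD encodes the d subunit of the outer stalk, which holds the catalytic head still. It read 3616, 3498, 3837 and 4391 in control and 5514, 6120, 5383 and 5099 after CEE+MPA, with no overlap (0.53 ± 0.13, adjusted p = 0.0332). ATP5MG encodes subunit g, a small membrane subunit at the interface of ATP synthase dimers. It read 5175, 5418, 6138 and 4886 in control and 8269, 8015, 6497 and 7444 after CEE+MPA. These did not overlap (0.48 ± 0.14, adjusted p = 0.0498). ATP5MG lost its call with any 1 of the 8 arrays left out (adjusted p of up to 0.126). ATP5PD lost it with any of 6 (up to 0.111), the exceptions being replicate 4 of either group.

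Subunit c, the ring-forming proton carrier, is made from 3 genes whose mature proteins are identical. ATP5MC3 rose: it read 6232, 5916, 6870 and 7206 in control and 10693, 10221, 9164 and 8145 after CEE+MPA (0.54 ± 0.15, adjusted p = 0.0457), with no overlap. Its call was lost without any 1 of replicates 1 to 3 of either group (adjusted p of up to 0.143). ATP5MC1 differed by 0.56 ± 0.21 (adjusted p = 0.111) and ATP5MC2 by 0.27 ± 0.17 (adjusted p = 0.359). ATP5G1 is an older name for ATP5MC1, yet its 2 probe sets carry gene identifiers other than that of ATP5MC1. Its brighter probe set differed by 0.49 ± 0.19 (adjusted p = 0.135). ATP5F1B, the catalytic beta subunit, was at 3826 ± 102 in control and 4720 ± 638 after CEE+MPA (SD, n = 4). It differed by 0.29 ± 0.12 (adjusted p = 0.151), and CEE+MPA replicate 4 (3902) overlapped with control. ATP5F1D and ATP5PO, the delta subunit of the central stalk and a subunit at the top of the outer stalk, missed the threshold at adjusted p = 0.0526 and 0.0557. ATP5IF1, which encodes a protein that inhibits the enzyme rather than building it, differed by -0.03 ± 0.18 (adjusted p = 0.944, interval -0.42 to 0.36).

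Each of these 7 calls was lost under some of the alternatives. ATP5F1C passed in 22 of 27 alternatives and NDUFA4 in 19, while ATP5PD passed in 14, NDUFA7 in 13, NDUFB7 in 12, ATP5MC3 in 11 and ATP5MG in 9. All 7 were lost with the fibroblast covariate, without the 4 muscle arrays and within the low spike-in set, and all but ATP5F1C within the high set. ATP5PD, NDUFA7, NDUFB7, ATP5MC3 and ATP5MG were also lost without the filter, with quantile normalization and with the adipocyte covariate. ATP5MC3, NDUFB7 and ATP5MG were lost in fits of only the compared groups, and ATP5MC3 and ATP5MG with an offset of 1 and with the skeletal muscle covariate. With the fibroblast covariate the log2 difference of NDUFA7 was 0.06 and that of ATP5PD was 0.12. That covariate did not overlap between the groups, so the fit cannot well separate it from treatment. With a gene's probe sets averaged, NDUFB7 was at 0.18 and ATP5F1C at 0.30, and neither passed. All 7 differences were positive under every alternative run.

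**Figure D4:**
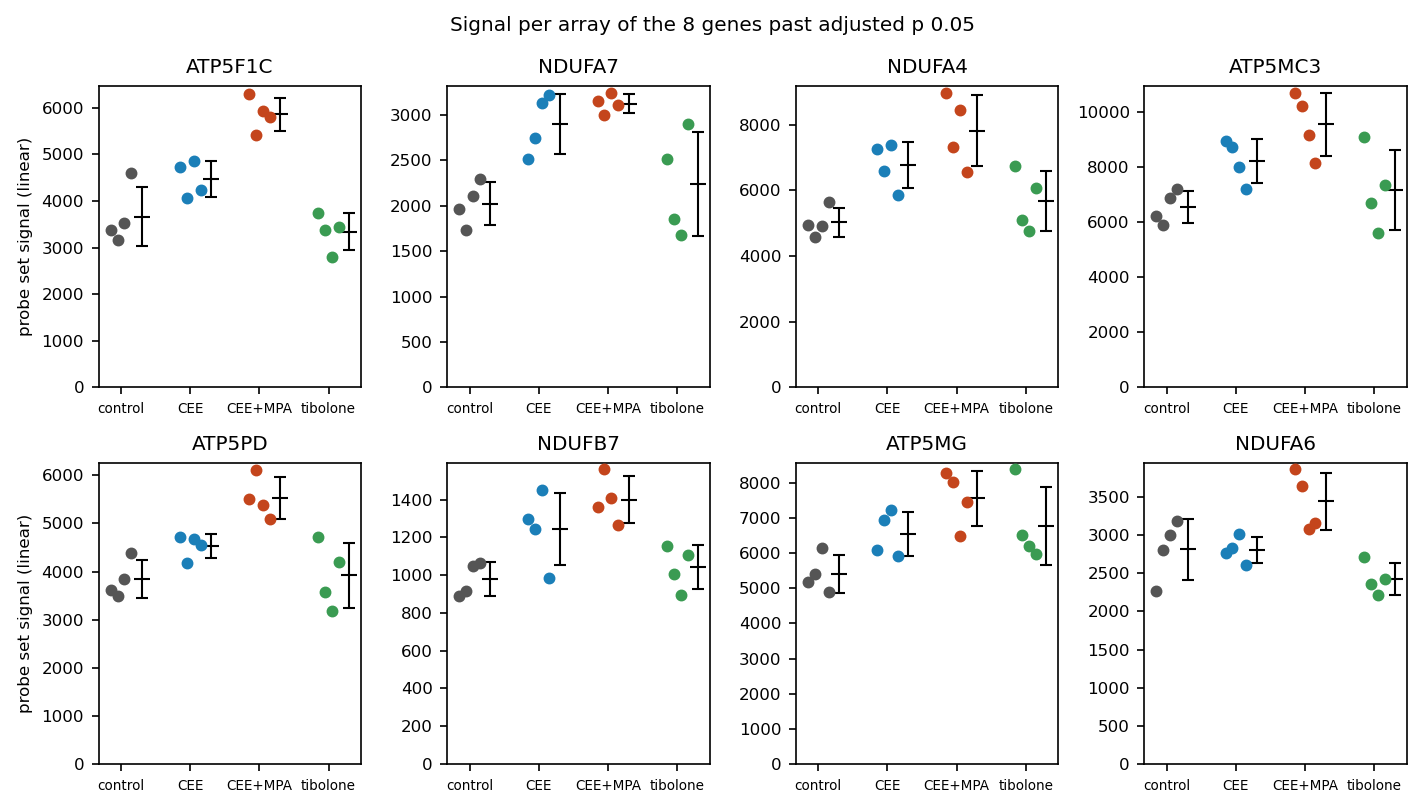
Signal per array, on a linear axis from 0, of the 7 genes that rose after CEE+MPA relative to control and of NDUFA6, which was lower with tibolone than with CEE+MPA; points are arrays and black marks the group mean and SD (n = 4). For ATP5F1C the CEE+MPA arrays (5423 to 6289) lie above all others (2793 to 4862).

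Second probe sets of the same genes did not always follow. Of 25 genes with several tested probe sets, 14 had probe sets of opposite sign for CEE+MPA against control. Over the 33 probe sets that did not represent a gene, the median difference was 0.02, with 1 rise and 1 fall (1.95% and 4.38% of all probe sets tested). The rise was in NDUFA2, an accessory complex I subunit, at 0.57 ± 0.16 (adjusted p = 0.0422), beside 0.46 ± 0.15 (adjusted p = 0.0808) for its representative. The fall was in ATP5F1E, the epsilon subunit of the central stalk. Its dimmer probe set went from 584 ± 127 to 282 ± 114 (SD, n = 4; -1.08 ± 0.28, adjusted p = 0.0351), and its brighter one from 6275 ± 514 to 8097 ± 960 (0.36 ± 0.13, adjusted p = 0.109). For ATP5F1C the second probe set was at 178 in control and 164 after CEE+MPA, a difference of -0.09 ± 0.18 (adjusted p = 0.801). The second probe set of NDUFB7 differed by -0.14, beside 0.51 for its representative.

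With CEE alone, 0 of 56 subunit genes were called against control, where limma called 0.0574% of all genes. At an unadjusted p under 0.05, 15 were higher (26.8%, beside 6.68% of all genes and 11.2% of bright ones) and 0 lower (beside 7.47% and 6.12%). Signs were positive for 51 of 56 (91.1%, beside 52.1%), and the median was 0.18, a 1.13-fold difference, beside 0.01 over all genes and 0.07 over bright genes. For 12 genes every CEE array lay above every control, beside 5.28% of all genes and 11.2% of bright genes. The smallest p-values belonged to NDUFS4 (0.45 ± 0.14, adjusted p = 0.234), NDUFA7 (0.52 ± 0.16, adjusted p = 0.241) and NDUFA4 (0.43 ± 0.15, adjusted p = 0.268). By complex the unadjusted counts were 6 of 25 in complex I, 0 of 3 in complex II, 1 of 6 in complex III, 1 of 8 in complex IV and 7 of 14 in the ATP synthase. The CEE arrays all had low skeletal muscle means (-1.14 to -0.84), and fibroblast means of -0.23 to 0.06 against 0.20 to 0.59 in control. With the fibroblast covariate the median was 0.13, but these groups did not overlap in that mean either. The part of these markers was not tested further.

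With tibolone, 0 of 56 subunit genes were called against control, beside 0.00957% of all genes. At an unadjusted p under 0.05, 1 subunit was higher and 0 were lower, beside 2.58% and 2.25% of all genes and 1.64% and 2.04% of bright genes. This was ATP5MG, which read 8403, 6507, 6199 and 5976 with tibolone, higher on average than in control by 0.32 ± 0.14 (adjusted p = 0.913, interval 0.02 to 0.61). Its lowest tibolone array overlapped with the highest control array (6138). NDUFA10, an accessory subunit of complex I, differed by 0.29 ± 0.14 and ATP5PO by 0.25 ± 0.12, both at adjusted p = 0.913. For 1 gene, NDUFB10, every tibolone array lay above every control array, beside 1.81% of all genes. The median was 0.10, with 43 of 56 positive (76.8%, beside 52.4% of all genes). The tibolone arrays were spread widely: the mean of all subunits was 0.10 on replicate 1 and -0.23 on replicate 3, which also had high skeletal muscle signal. The median was 0.04 without tibolone replicate 1 and 0.16 without replicate 3.

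Adding MPA to CEE gave 0 calls among the 56 subunits, beside 0.0287% of all genes. Signs were positive for 48 genes, the median was 0.14, and 3 genes passed an unadjusted p of 0.05, all higher (5.4%, beside 2.7% of all genes and 3.48% of bright ones), and 0 lower (beside 4.88% and 3.52%). These were ATP5F1C (0.39 ± 0.14, adjusted p = 0.491), ATP5MC1 (0.47 ± 0.21, adjusted p = 0.606) and NDUFA6 (0.29 ± 0.13, adjusted p = 0.634). For 5 genes, ATP5F1C and ATP5PD among them, every CEE+MPA array lay above every CEE array, beside 2.43% of all genes and 5.12% of bright genes. This comparison and that of CEE+MPA with control share the CEE+MPA arrays, so their values are not independent.

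Between tibolone and CEE 0 of 56 subunits were called, and limma called 0 of all 10452 genes, with an unadjusted p under 0.05 for 6.53% of genes higher and 6.45% lower. Of the subunits 0 were higher and 5 lower at that level (8.9%), which was below the 11.5% of bright genes that were lower. The median was -0.10 and 11 of 56 were positive. For 4 subunits every tibolone array lay below every CEE array, beside 3.02% of all genes and 6.0% of bright genes. The smallest p-values were those of ATP5F1C (-0.42 ± 0.14, adjusted p = 0.284), NDUFS4 (-0.38 ± 0.14, adjusted p = 0.327) and NDUFA7 (-0.40 ± 0.16, adjusted p = 0.368). Without the 4 muscle arrays the median was 0.03.

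Tibolone against CEE+MPA was the other comparison with calls: 3 of 56 subunits were lower with tibolone (5.36%) and 0 higher. Over all genes 3.37% were lower and 3.98% higher. Among bright genes 7.08% were lower, a larger share than among the subunits, so the count of 3 is not a result about the subunits as a group. The median was -0.21, beside 0.01 over all genes and -0.14 over bright genes, with 7 of 56 positive. At an unadjusted p under 0.05, 16 subunits were lower (28.6%, beside 13% of all genes and 24.4% of bright ones) and 0 higher (beside 15% of all genes). For 10 every tibolone array lay below every CEE+MPA array, beside 7.03% of all genes and 14.6% of bright genes, and for 1, COX4I2, above, beside 7.78% of all genes. ATP5F1C fell by 0.81 ± 0.14 (adjusted p = 0.00763), with 2793 to 3733 on tibolone arrays and 5423 to 6289 on CEE+MPA arrays. It passed in 23 of 26 alternatives, including each array left out, and was at -0.29 and not past the threshold with averaged probe sets. ATP5PD fell by 0.51 ± 0.13 (adjusted p = 0.0395) and passed in 11 of 26.

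NDUFA6, an accessory complex I subunit of the peripheral arm, fell by 0.50 ± 0.13 (adjusted p = 0.0390) and was not among the genes called against control. It read 2264, 2810, 3002 and 3187 in control, 2769, 2827, 3011 and 2607 with CEE, 3870, 3646, 3085 and 3164 with CEE+MPA, and 2717, 2358, 2213 and 2420 with tibolone. Every CEE+MPA array lay above every tibolone and every CEE array, while control overlapped with all of them. The count of 3 was 1 with any CEE+MPA array or tibolone replicate 2 or 3 left out, 5 without tibolone replicate 1 and 4 without tibolone replicate 4. With these arrays left out the calls over all genes ran from 83 to 1417, where 768 were called with every array in. The count of subunits was 0 without the 4 muscle arrays, where the median was -0.09 and limma called 0 of all genes. ATP5PD and NDUFA6 lost their calls with any CEE+MPA array or tibolone replicate 2 or 3 left out (adjusted p of up to 0.115 and 0.106). Both were also lost when the spike-in set was a blocking factor (adjusted p = 0.0727 for ATP5PD and 0.0857 for NDUFA6) and within the high set (0.0884 and 0.115). That set holds all 4 tibolone arrays, at a spike-in level of their own. Quantile normalization, no filter, the skeletal muscle, adipocyte and fibroblast covariates and a fit of only the compared groups ended both calls as well. NDUFA6 passed in 9 of 26 alternatives, and it was lost with array weights (adjusted p = 0.0520) and with averaged probe sets, where it was at -0.18. Fibroblast markers were higher for 5 of 13 genes with tibolone, and myoepithelial and smooth muscle markers for 7 of 9, beside 3.98% of all genes. With the fibroblast covariate 0 subunits and 0 of all genes were called, and the subunit median was -0.17. The fibroblast mean did not overlap here either, with -0.10 to 0.30 on tibolone and -0.73 to -0.17 on CEE+MPA arrays.

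The other genes of mitochondrial energy metabolism are given beside the subunits. In CEE+MPA against control 2.74% of all genes rose and 4.96% fell, and of bright genes 6.36% and 5.36%. The counts in these lists, many of 1 or 2 genes, are to be read beside those shares. Of 38 assembly factors, 2 rose and 0 fell after CEE+MPA relative to control, with a median of 0.22. NDUFAF6, which acts in complex I assembly, went from 233 ± 27.3 to 390 ± 35.1 (SD, n = 4; 0.71 ± 0.13, adjusted p = 0.00853). TMEM70, which acts in ATP synthase assembly, went from 1220 ± 247 to 1996 ± 426 (0.70 ± 0.19, adjusted p = 0.0397). COX15, needed for the heme of complex IV, differed by 0.92 ± 0.29 (adjusted p = 0.0644).

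Of 14 genes of the tricarboxylic acid cycle and pyruvate dehydrogenase, 3 rose and 1 fell (beside 2.74% and 4.96% of all genes). The median was 0.39. SUCLG1, a subunit of succinyl-CoA ligase, rose by 0.57 ± 0.12 (adjusted p = 0.0171), and IDH3G, a subunit of the NAD-dependent isocitrate dehydrogenase, by 0.61 ± 0.14 (adjusted p = 0.0217). MDH2, the mitochondrial malate dehydrogenase, rose by 0.43 ± 0.12 (adjusted p = 0.0464). FH, fumarase, fell from 224 ± 17.9 to 116 ± 17.4 (-0.87 ± 0.17, adjusted p = 0.0114). Of 11 fatty acid oxidation genes 1 rose, ETFB, a subunit of the flavoprotein that carries electrons from acyl-CoA dehydrogenases (0.57 ± 0.16, adjusted p = 0.0434), and the median was 0.46. ACADM, the medium-chain acyl-CoA dehydrogenase, stood at 0.44 ± 0.13 (adjusted p = 0.0501).

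Of 24 genes of mitochondrial biogenesis and electron carriers, 1 rose and 1 fell (beside 2.74% and 4.96% of all genes). The median was 0.20. SLC25A5, which exchanges ADP for ATP across the inner membrane, went from 5912 ± 1017 to 10230 ± 1116 (0.80 ± 0.19, adjusted p = 0.0262). NDUFA4L2, a relative of NDUFA4, fell from 135 ± 19.4 to 85.4 ± 21.7 (-0.59 ± 0.16, adjusted p = 0.0363). Glycolysis differed in sign, with a median of -0.14 over 19 genes, 2 of which rose and 2 fell. PFKP rose by 0.82 ± 0.20 (adjusted p = 0.0290) and ALDOA by 0.56 ± 0.15 (adjusted p = 0.0414), and PKM, a pyruvate kinase, fell by 0.74 ± 0.20 (adjusted p = 0.0376).

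In tibolone against CEE+MPA, 3.37% of all genes were lower and 3.98% higher, and of bright genes 7.08% and 3.6%. This comparison shares the CEE+MPA arrays with that of CEE+MPA and control. It called 3 of 11 fatty acid oxidation genes lower with a median of -0.51. These were HADHA (-0.69 ± 0.15, adjusted p = 0.0232) and HADHB (-0.86 ± 0.23, adjusted p = 0.0379), the subunits of the trifunctional protein, and ETFB (-0.69 ± 0.16, adjusted p = 0.0246). SUCLG1 and IDH3G of the tricarboxylic acid cycle fell by 0.59 ± 0.12 and 0.65 ± 0.14, SLC25A5 by 0.73 ± 0.19, PDSS1, which acts in ubiquinone synthesis, by 0.75 ± 0.19, and NDUFAF6 by 0.46 ± 0.13. Of the glycolysis genes 2 were higher: LDHA, a subunit of lactate dehydrogenase (0.63 ± 0.17, adjusted p = 0.0408), and SLC16A3, a lactate exporter (1.29 ± 0.24, adjusted p = 0.0121). CEE against control gave no call in these lists, with medians of 0.12 for assembly factors, 0.14 for the tricarboxylic acid cycle, 0.11 for fatty acid oxidation and -0.24 for glycolysis.

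**Figure D5:**
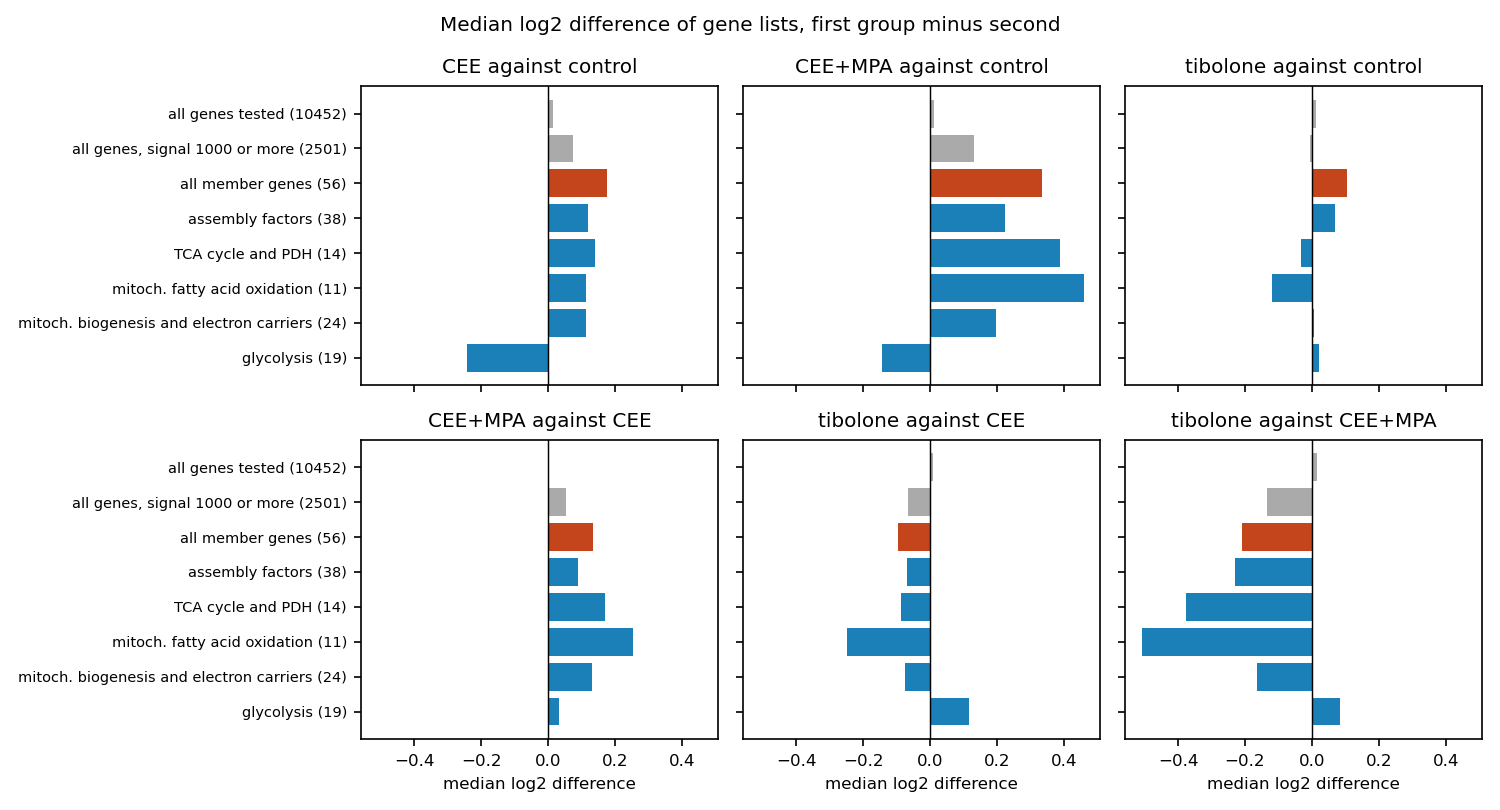
Median log2 difference in each comparison over all genes tested, over genes with a mean signal of 1000 or more, over the subunit genes (red) and over the other lists of energy metabolism (blue); the number of genes is in brackets. In CEE+MPA against control the subunit median is 0.34, beside 0.13 over bright genes, 0.46 for fatty acid oxidation and -0.14 for glycolysis.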

How the data were processed

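Total RNA of each animal was extracted with Tri-reagent and RNeasy columns and labelled with biotin, per the labels' protocols. The authors deposited linear signal intensity per probe set, scaled to a common trimmed mean (2% cut at each end). GCOS and Affymetrix Expression Console are named in the submitters' processing notes, and how the signals were summarised is not given in the sources used here. Gene symbols came from the array's annotation, which names no genome build. The RefSeq gene table for cynomolgus macaques held 56 of the 57 member symbols. Another 12 probe sets carried a member symbol among several and were not used. Of the member probe sets, 15 were of the type shared between similar transcripts (_s_at) and 1 of the mixed type (_x_at), so near-identical copies may contribute to them.

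Tests covered probe sets with a signal above 60.2 on at least 4 arrays, namely 28704 probe sets of 10452 genes. One limma model (version 3.58.1, R 4.3.3) with 4 group means was fitted to log2(signal + 16) over all 16 arrays, which understates fold changes of dim genes, and 6 comparisons were adjusted by Benjamini and Hochberg at 0.05. The steps were tested on simulated data. Replicates were numbered in deposition order. Named genes were, in each comparison, up to 8 members with the largest rise and fall past the threshold, the 3 smallest p-values where fewer than 3 passed, a panel of catalytic subunits and isoforms, discordant probe sets of which 1 passed, and up to 3 genes of each other list. UQCR11, ATP5F1D, ATP5PO and ATP5IF1 in CEE+MPA against control, NDUFS4 and MDH2 there, NDUFB10 in tibolone against control, and KRT19, EPCAM, PGR and AGR2 were named after their values were seen. The members and lists were chosen with earlier results of these data known. Alternatives were other offsets, filters and scalings, a trended prior, array weights, covariates, spike-in sets as a block or analysed apart, omitted arrays, only the compared groups, and averaged probe sets. The number of arrays limits the precision. Python 3.11.15, pandas 2.3.3 and matplotlib 3.10.9 were used.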

Additional observations from a re-analysis of the deposited data

Results flagged for a closer look

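Single arrays stood apart from the other 3 of their group in 5 of 132 groups of 4 arrays examined (108 of named genes and 24 of list means), by a gap relative to the group's range above Dixon's 95% critical value. Chance alone passes this cut-off in about 5% of groups.

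The complex IV mean was 0.354 on tibolone replicate 2, where the other tibolone arrays lay between -0.06 and -0.03, and COX6A2 read 509.4 on control replicate 1, where the other controls lay between 29.1 and 61.1. Both arrays had high skeletal muscle signal, and without COX6A2 the complex IV mean of tibolone replicate 2 was -0.01. COX7A1 read 2430 on tibolone replicate 3 beside 3243 to 3408. NDUFS1 read 2108 on tibolone replicate 1 beside 1751 to 1787. COX4I2 read 53.43 on CEE+MPA replicate 1 beside 64.8 to 66.6, all near the median signal of the array.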

How the results depend on the processing

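The number of subunit genes called was 0 under every alternative for CEE against control, tibolone against control, CEE+MPA against CEE and tibolone against CEE. No call went the other way under any alternative in the 2 comparisons with calls. In CEE+MPA against control (7 called) the count was 2 without the filter, with quantile normalization and with the adipocyte covariate, 13 with the filter at the 75th percentile, 11 with median centring and with a spike-in block, and 15 with array weights. It was 0 with the fibroblast covariate, without the 4 muscle arrays and within the low spike-in set, 1 within the high set, and 0 to 10 with 1 array left out. In tibolone against CEE+MPA (3 called) it was 1 without the filter, with quantile normalization, with the skeletal muscle or adipocyte covariate, with the spike-in block, with only the compared groups and within the high set. It was 7 with the filter at the 75th percentile, 10 with median centring, 5 with the trended prior, 0 with the fibroblast covariate and without the muscle arrays, and 1 to 5 with 1 array left out. Fewer arrays entered the fits that left arrays out or stayed within a set, and the cause of the other shifts was not tested. The fibroblast and luminal covariates were chosen after seeing the data. In both comparisons with calls the groups did not overlap in the fibroblast mean, so that fit cannot well separate it from treatment.

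Signs under the alternatives were followed for the genes called, those with the 3 smallest p-values and the panel. Among these, signs turned only in CEE+MPA against control, for genes not past the threshold. The remaining subunit genes were not followed in this way. COX7A2 was at 0.041 with median centring, 0.021 with the adipocyte covariate, 0.298 with the fibroblast covariate, 0.004 within the low spike-in set, 0.069 with averaged probe sets, and -0.053 to 0.004 with 1 array left out (0.002 without control replicate 2). COX6A2 was at 0.13, 3.76 and 0.976 with the adipocyte covariate, the fibroblast covariate and the low set, and at -0.957 to 0.266 with 1 array left out (0.266 without control replicate 1). COX8A was at -0.017, -0.603 and -0.106 under the same 3 settings. With the fibroblast covariate NDUFV1 was at -0.527, UQCRC1 at -0.061, UQCRFS1 at -0.225, COX5A at -0.189 and ATP5MC2 at -0.273. COX4I2 was at 0.043 without the muscle arrays, SDHA at -0.317 to 0.025 with 1 array left out (0.025 without control replicate 2) and ATP5G1 at -0.103 with averaged probe sets. The median over tibolone against CEE, -0.10, was 0.03 without the muscle arrays.

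No paired analysis was possible because the labels link no animals across groups. The 7 subunit genes called against control all differed by 0.48 or more on the log2 scale, and the median standard error over the subunit genes was 0.15.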
